A study of Mus musculus with 6 samples.

Results

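Slc52a2, Slc29a1 and Atp13a3 encode membrane transporters for riboflavin, nucleosides and polyamines. Their transcripts were followed in testis RNA of C57BL/6 mice fed high-fat food for 8 weeks (libraries 10, 11 and 12) and of C57BL/6 mice fed normal food for 8 weeks (libraries 7, 8 and 9). The deposited table has 1 line per transcript and lists only transcripts that the authors called different between the diets. The members are the 9 listed transcripts at the 3 loci, out of 831 listed transcripts at 750 loci: 2 at Slc52a2, 2 at Slc29a1 and 5 at Atp13a3. Of the 9, 4 are annotated transcripts with an Ensembl identifier and 5, with names beginning in MSTRG, come from the authors' own assembly. Neither the age of the mice nor whether each library came from its own animal is stated in the labels, so the spread between libraries may be technical.

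The members were chosen by the difference between the diets, so their values describe that difference and give no test of it. In the authors' deposited table their adjusted p-values lie between 1.85e-30 for MSTRG.10549.1 and 0.0361 for MSTRG.13142.2. The last is the member nearest to the limit of the table, whose highest adjusted p-value is 0.0497, and transcripts beyond the limit were not analysed here. On the high-fat diet 7 of the 9 members were higher, beside 0.48% of the 95751 transcripts that the authors tested. The other 2 were lower, beside 0.387% of those tested. In either direction 0.868% were called, and nothing is read from these counts because the same calls chose the members. Bulk testis RNA mixes germ cells and somatic cells, so fewer cells of a type and less RNA per cell cannot be told apart. Of 48 marker genes of testis cell types, epididymis, fat and blood, 0 had an annotated transcript in the table, and the levels of unlisted transcripts were not analysed here. An assembled transcript over Crem, which encodes a transcription factor of spermatids, was listed at 2441, 1146 and 326 scaled counts on the high-fat diet, against 31, 24 and 20 on the normal diet; its part in the results was not tested.

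Riboflavin, vitamin B2, is taken up by transporters of the SLC52 family and converted inside the cell to FMN and FAD, the cofactors of flavoenzymes such as those of fatty acid oxidation and the respiratory chain. Nucleosides cross membranes down their gradient through equilibrative transporters of the SLC29 family, which feed nucleotide salvage and set adenosine levels outside the cell. Polyamines such as spermidine and spermine are taken in by endocytosis and moved out of endosomes and lysosomes by P5B-type ATPases, among them ATP13A2 and ATP13A3, and are abundant in the male reproductive tract.

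Slc52a2 had 2 listed transcripts that exchanged places between the diets. The canonical coding transcript was the more abundant on the high-fat diet, and an assembled transcript with a more distant 3′ end was the more abundant on the normal diet. Their sum differed by less than the spread between libraries. Slc52a2 encodes a riboflavin transporter of the plasma membrane, and variants of the human gene cause a riboflavin transporter deficiency with nerve degeneration.

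The canonical transcript ENSMUST00000023220 lies on chromosome 15 of GRCm38, plus strand, from 76538832 to 76544608, with 5 exons and 5289 bases, the same ends and length as in the GENCODE M21 annotation. It had 1343, 1123 and 1091 scaled counts on the high-fat diet, against 303, 192 and 230 on the normal diet. A scaled count is an estimated read count divided by the size factor of its library, rounded by the authors. Every high-fat library was above every normal-diet library. The means were 1186 ± 137 on the high-fat diet and 242 ± 56.4 on the normal diet (SD, n = 3 each), and the log2 fold change was 2.29 ± 0.33 (SE, edgeR).

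The assembled transcript MSTRG.10549.1 starts at the same base, 76538832, and ends at 76546655, which is 2047 bases beyond the end of the canonical transcript. It had 1, 3 and 2 scaled counts on the high-fat diet, against 988, 843 and 680 on the normal diet. The diets did not overlap, and the high-fat libraries were close to 0. The log2 fold change was -8.65 ± 0.57 (SE, edgeR). DESeq2 gave -8.73 ± 0.67 and limma -8.46 ± 0.34 (SE), so the standard error depends on the method here. The transcript has 6 exons and 5009 bases, so it contains 1 exon more and 2327 more intron bases than the canonical transcript while being shorter. GENCODE M21 has 0 genes on either strand in the stretch beyond the canonical end. The RefSeq gene on GRCm38 runs to 76547878 and so covers it. Exon boundaries are not part of the deposited table, so whether the coding sequence is the same was not determined.

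Summed over both transcripts, Slc52a2 had 1344, 1126 and 1093 scaled counts on the high-fat diet, against 1291, 1035 and 910 on the normal diet. The diets overlapped. The means were 1188 ± 136 on the high-fat diet and 1079 ± 194 on the normal diet (SD, n = 3 each). The log2 fold change of the sum was 0.14 ± 0.26 (SE, edgeR) with the authors' size factors. With the other scalings tried it was between -0.11 and -0.38. Those scalings were computed from the listed transcripts alone, all called different between the diets, so they cannot settle the direction of the sum. The canonical transcript held 99.8% ± 0.0927 of the listed Slc52a2 counts on the high-fat diet and 22.4% ± 3.48 on the normal diet (SD, n = 3 each), a share that does not depend on the scaling of libraries. Counts of overlapping transcripts are the assembler's estimates from shared reads, so a sum rests on fewer assumptions than the split. GENCODE M21 lists 2 transcripts of Slc52a2, of which only the canonical transcript is in these sums, so they are not the total output of the gene.

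**Figure D1:**
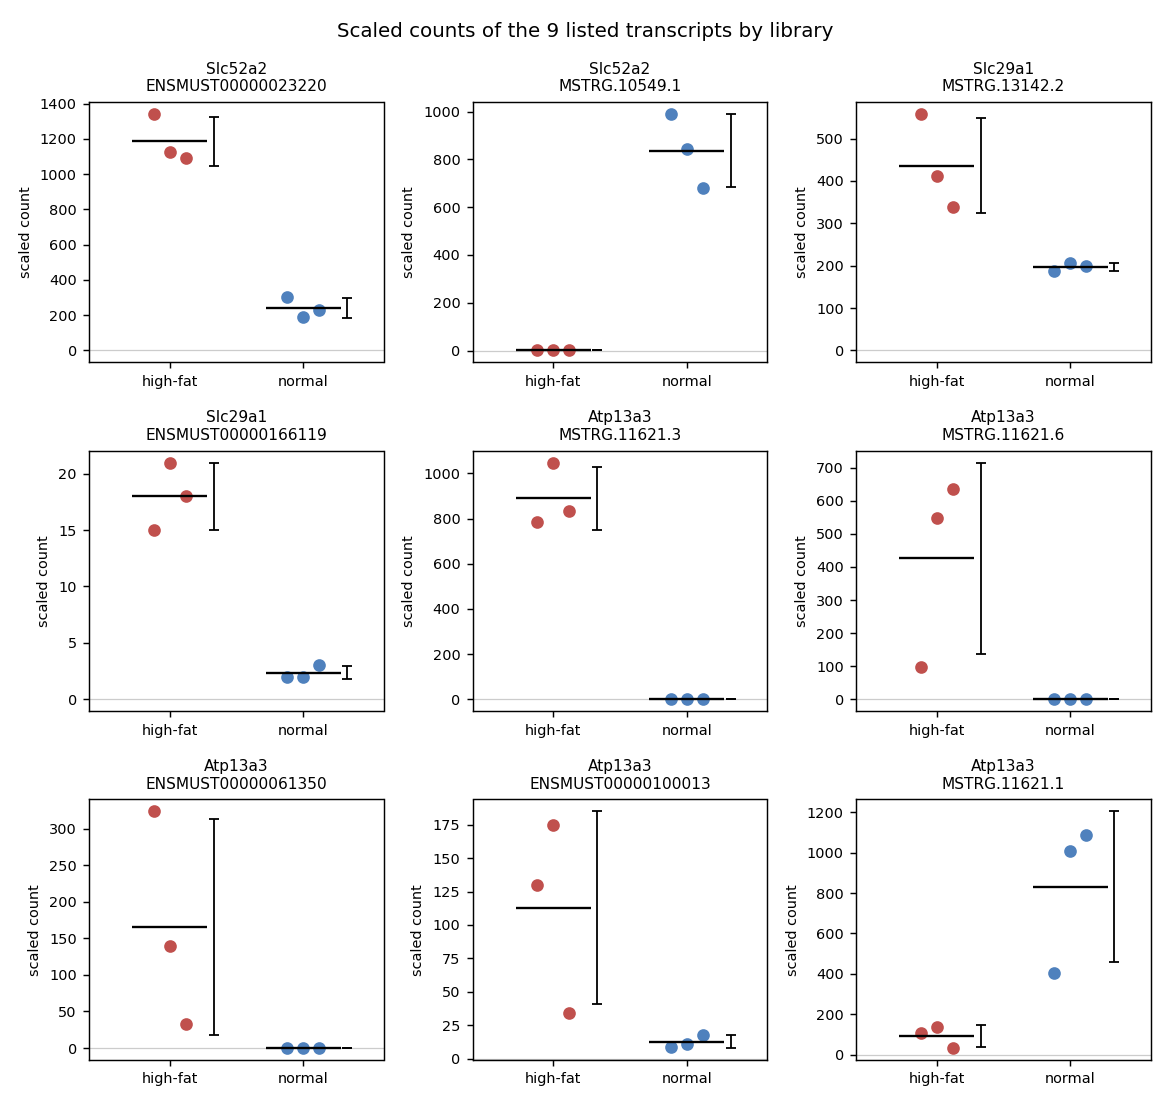
Scaled counts (y axis, linear, each panel with its own range) of the 9 listed transcripts in the 3 high-fat libraries (red, left) and the 3 normal-diet libraries (blue, right); horizontal lines are means and bars are ± 1 SD. In all 9 panels the diets do not overlap, which holds for 91% of all listed transcripts. MSTRG.10549.1 of Slc52a2 and MSTRG.11621.1 of Atp13a3 are lower on the high-fat diet and the other 7 are higher.

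Slc29a1 had 2 listed transcripts, both higher on the high-fat diet. It encodes the equilibrative nucleoside transporter ENT1, which carries adenosine and other purine and pyrimidine nucleosides in both directions. Nearly all of its listed counts belonged to an assembled transcript, and the listed sum was 2.27 times as high on the high-fat diet as on the normal diet.

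The assembled transcript MSTRG.13142.2 lies on chromosome 17, minus strand, from 45585181 to 45596181, with 14 exons and 2130 bases. It had 559, 412 and 338 scaled counts on the high-fat diet, against 188, 206 and 199 on the normal diet. All 3 high-fat libraries were above the normal-diet libraries, and they were also more spread, at 436 ± 112 on the high-fat diet and 198 ± 9.07 on the normal diet (SD, n = 3 each). The log2 fold change was 1.14 ± 0.35 (SE, edgeR). Among the 9 members this difference was the smallest, and its adjusted p-value in the authors' deposited table was the highest of the 9.

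The annotated coding transcript ENSMUST00000166119 lies from 45585542 to 45592840 in the deposited table, with 13 exons and 1941 bases. It had 15, 21 and 18 scaled counts on the high-fat diet, against 2, 2 and 3 on the normal diet. The diets did not overlap, at 18 ± 3 on the high-fat diet and 2.33 ± 0.577 on the normal diet (SD, n = 3 each). The log2 fold change was 2.94 ± 0.33 (SE, edgeR). DESeq2 gave 3.01 ± 0.66 (SE), so at these low counts the standard error depends on the method and the smaller value may understate it. ENSMUST00000166119 made up 4.24% ± 1.36 of the listed Slc29a1 counts on the high-fat diet and 1.13% ± 0.227 on the normal diet. GENCODE M21 starts this transcript 343 bases further downstream, and the 343 bases account for all of the difference in length. The 5′ end in the table is that of another annotated transcript of the gene, ENSMUST00000171876, which retains an intron.

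The 2 listed transcripts start 3341 bases apart. RefSeq on GRCm38.p6 gives 8 start sites for Slc29a1, and the assembled transcript begins 54 bases upstream of 1 of them. The sequence around that start site, from 250 bases before to 50 bases after it, is shown because it is the only RefSeq start window of the gene that holds the start of a listed transcript. It lies at chr17:45596078-45596377 on the minus strand, and capitals mark the first 10 bases of MSTRG.13142.2.
Slc29a1 start window: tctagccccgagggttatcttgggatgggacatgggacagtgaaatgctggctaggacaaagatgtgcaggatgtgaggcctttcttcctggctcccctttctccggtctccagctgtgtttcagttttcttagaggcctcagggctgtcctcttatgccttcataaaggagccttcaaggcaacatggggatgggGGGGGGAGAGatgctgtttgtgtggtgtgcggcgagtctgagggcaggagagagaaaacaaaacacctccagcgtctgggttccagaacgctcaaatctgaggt
The window holds 6 CpG dinucleotides, against a median of 7 in all 32851 RefSeq start windows of this length. It contains neither GGGCGG nor its reverse complement CCGCCC, letters found in 5 of the 8 Slc29a1 windows and in 35.7% of all windows. TATAAA, or TTTATA on the other strand, is in 0 of the 8 Slc29a1 windows and in 13.6% of all windows. The nearest RefSeq start site to ENSMUST00000166119 is 97 bases upstream, and the start falls outside its window.

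Summed over both transcripts, Slc29a1 had 574, 433 and 356 scaled counts on the high-fat diet, against 190, 208 and 202 on the normal diet. The diets did not overlap. The log2 fold change of the sum was 1.18 ± 0.33 (SE, edgeR). GENCODE M21 lists 25 transcripts of Slc29a1, so these sums are not the total output of the gene. The antisense gene Gm17080 overlaps Slc29a1 on the plus strand from 45586120 to 45588377. The libraries keep strand per the labels' protocols, but the labels do not say whether the counting used strand, so reads of the antisense gene cannot be told apart.

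Atp13a3 had 5 listed transcripts, more than any other of the 750 loci, 4 with more and 1 with fewer counts on the high-fat diet. It encodes a P5B-type ATPase that takes part in polyamine uptake. On the normal diet nearly all listed counts belonged to the assembled transcript MSTRG.11621.1, and on the high-fat diet most belonged to the other 4. The listed sum was about 2 times as high on the high-fat diet.

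MSTRG.11621.1 lies on chromosome 16, minus strand, from 30312017 to 30388125, with 32 exons and 7966 bases. It had 107, 136 and 33 scaled counts on the high-fat diet, against 404, 1006 and 1085 on the normal diet. The diets did not overlap, and library 7 was below the other normal-diet libraries. The means were 92.0 ± 53.1 on the high-fat diet and 832 ± 372 on the normal diet (SD, n = 3 each), and the log2 fold change was -3.17 ± 0.71 (SE, edgeR). Its 3′ end is 406 bases beyond that of the annotated transcripts. Its 5′ end lies in the first annotated intron, 223 bases from the first exon of ENSMUST00000061350.

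MSTRG.11621.3 was the most abundant Atp13a3 transcript on the high-fat diet, at 785, 1048 and 833 scaled counts, against 0 in each normal-diet library. Against a floor of 3 counts per normal-diet library, its mean on the high-fat diet was at least 303-fold higher. The log2 bound was 8.24, and 7.70 to 8.00 with the other scalings tried. Its span runs from 30312423 to 30388837, and its 5′ end is that of an annotated transcript with a retained intron, ENSMUST00000136065. It has 33 exons and 7527 bases, 199 more than ENSMUST00000061350 has in the deposited table, and its 5′ end is 199 bases further upstream. Both have 68888 intron bases, so by these numbers the longer first exon accounts for the whole difference.

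MSTRG.11621.6 starts at the same base as MSTRG.11621.3 and ends at 30312541, 118 bases before the annotated end. It had 97, 548 and 636 scaled counts on the high-fat diet, against 0 in each normal-diet library. Its high-fat mean was at least 145-fold higher against the same floor. The log2 bound was 7.18 with all libraries, 6.78 without library 12 and 6.62 to 6.97 with the other scalings tried. Library 10 was far below the other high-fat libraries. The transcript has 32 exons and 7366 bases, which leaves it 43 bases and 1 exon short of MSTRG.11621.3 once the 3′ ends are set aside. Only exon 25 of the 33 exons of ENSMUST00000061350 has this length. That exon is coding, lies at chr16:30338627-30338669 on the minus strand, and its length is no multiple of 3, with 1 base over. Which exon the assembled transcript lacks was not determined, because the deposited table gives no exon boundaries. The exon is shown in capitals with 15 bases of each neighbouring exon, read from the GENCODE M21 transcript.
Atp13a3 exon 25: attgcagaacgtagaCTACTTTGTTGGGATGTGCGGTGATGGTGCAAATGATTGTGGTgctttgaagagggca

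The annotated Atp13a3 transcripts ENSMUST00000061350 and ENSMUST00000100013 both run from 30312423 to 30388638 in the deposited table, with 33 and 34 exons. GENCODE M21 starts both 108 bases further downstream, and the 108 bases account for all of the difference in length. In GENCODE M21, ENSMUST00000061350 differs from the canonical ENSMUST00000100013 only by lacking exon 33, 90 coding bases at chr16:30321806-30321895 on the minus strand. The 90 bases are 30 codons and leave the reading frame as it is. Both versions are shown as the GENCODE M21 transcripts have them, with exon 33 in capitals and 15 bases of each neighbouring exon.
ENSMUST00000100013: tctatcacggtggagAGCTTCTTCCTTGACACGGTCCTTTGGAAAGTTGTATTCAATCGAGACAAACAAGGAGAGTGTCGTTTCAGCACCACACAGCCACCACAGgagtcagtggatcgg
ENSMUST00000061350: tctatcacggtggaggagtcagtggatcgg

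ENSMUST00000061350, without exon 33, had 324, 140 and 33 scaled counts on the high-fat diet, against 0 in each normal-diet library. Its high-fat mean was at least 56.4-fold higher against the floor of 3 counts per library. The bound depends on library 10, since the log2 bound was 5.82 with all libraries and 4.88 without library 10. ENSMUST00000100013, with exon 33, had 130, 175 and 34 scaled counts on the high-fat diet, against 9, 11 and 18 on the normal diet. Its diets did not overlap, library 12 was the lowest high-fat library for both transcripts, and the log2 fold change was 3.16 ± 0.72 (SE, edgeR).

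The high-fat libraries were uneven for 3 of the 4 higher Atp13a3 transcripts, and less so for MSTRG.11621.3 and for the sum of the 4. Library 10 held the highest count of ENSMUST00000061350 and the lowest of MSTRG.11621.6, and library 12 the reverse. The 4 transcripts have nearly the same span, and their counts are the assembler's estimates from shared reads. As at Slc52a2, a sum rests on fewer assumptions than the split, and how reads were shared out was not tested. The coefficient of variation over the high-fat libraries was 88.8% for ENSMUST00000061350, 67.7% for MSTRG.11621.6, 63.7% for ENSMUST00000100013 and 15.8% for MSTRG.11621.3. Summed over the 4 higher transcripts it was 18.3%, with 1336, 1911 and 1536 scaled counts on the high-fat diet, against 9, 11 and 18 on the normal diet.

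Over all 5 transcripts, Atp13a3 had 1443, 2047 and 1569 scaled counts on the high-fat diet, against 413, 1017 and 1103 on the normal diet. The diets did not overlap, and library 7 was far below the other normal-diet libraries. The means were 1686 ± 319 on the high-fat diet and 844 ± 376 on the normal diet (SD, n = 3 each), and the log2 fold change of the sum was 1.0 ± 0.44 (SE, edgeR), or 0.67 without library 7. The 4 higher transcripts held 94.6% ± 2.86 of the listed Atp13a3 counts on the high-fat diet and 1.59% ± 0.470 on the normal diet (SD, n = 3 each). GENCODE M21 lists 8 transcripts of Atp13a3, and those not in the deposited table are left out of these sums.

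**Figure D2:**
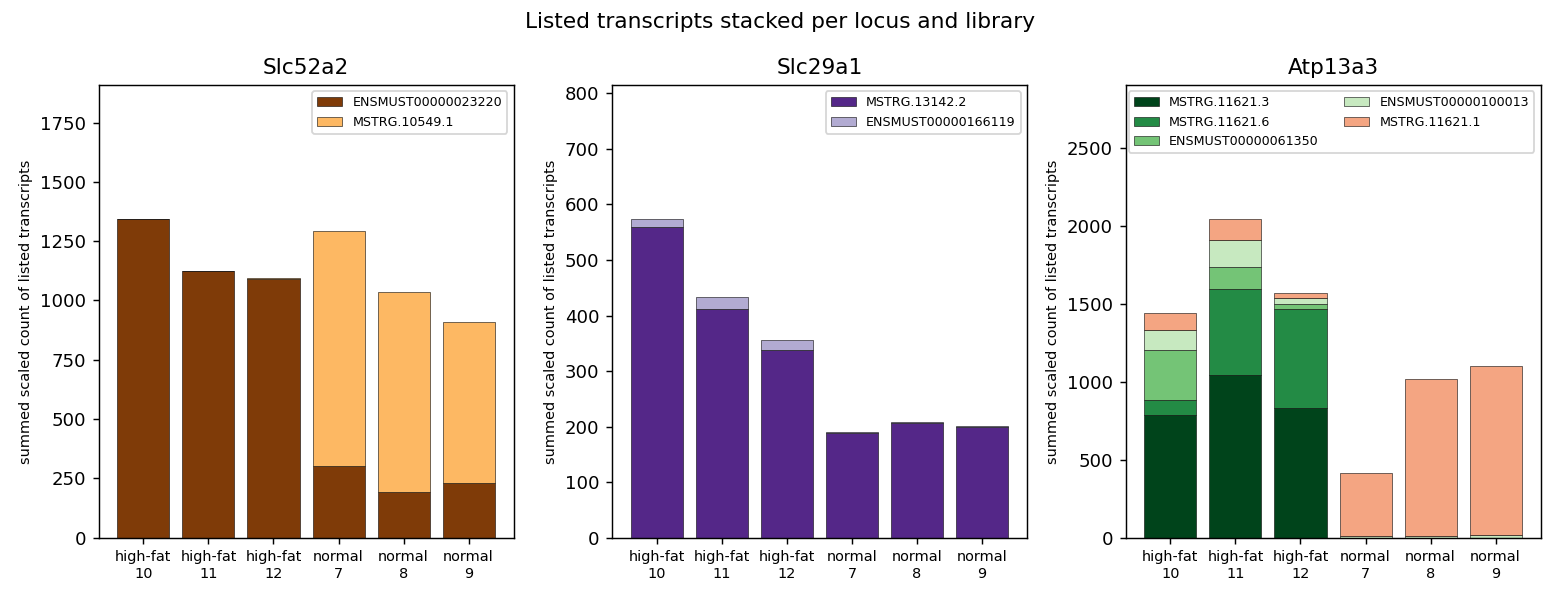
Stacked scaled counts (y axis, linear from 0) of the listed transcripts of each locus in the high-fat libraries 10, 11 and 12 (left) and the normal-diet libraries 7, 8 and 9 (right), with 1 colour per transcript. Slc52a2 bars are of like height in both diets with a different transcript filling them, Slc29a1 bars are higher on the high-fat diet with the same transcript filling them, and Atp13a3 bars change in both height and filling.

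**Figure D3:**
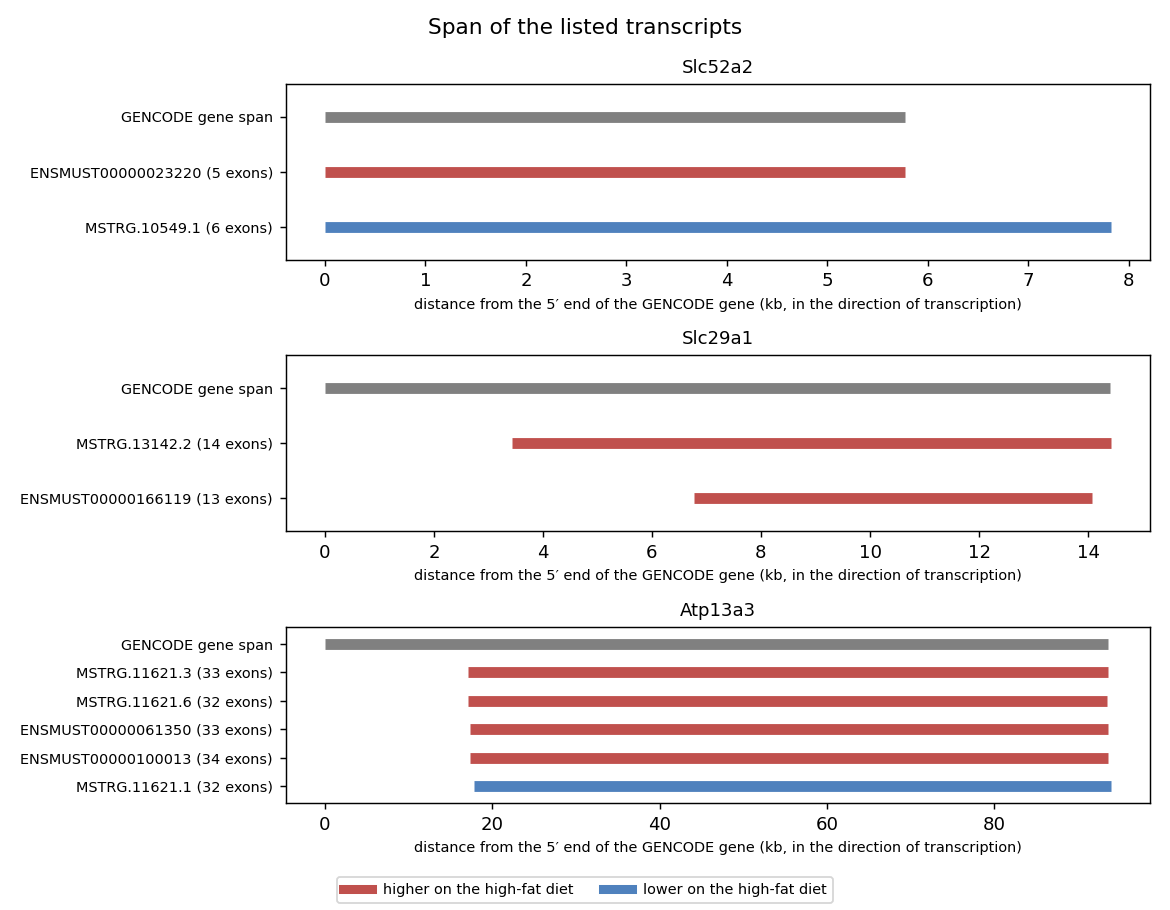
Spans of the listed transcripts beside the GENCODE gene span (grey), as distance in kb from the 5′ end of the gene in the direction of transcription (x axis); red spans are higher and blue spans lower on the high-fat diet, and exon numbers stand beside the names. At Slc52a2 and Atp13a3 the blue transcript extends beyond the 3′ end of the red ones, by 2047 and 406 bases against the annotated ends, and at Slc29a1 the red transcripts start 3341 bases apart.

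Per kilobase of transcript, the order of the members differed between the diets. On the high-fat diet ENSMUST00000023220 of Slc52a2 and MSTRG.13142.2 of Slc29a1 were the highest, at 224 ± 25.9 and 205 ± 52.8 scaled counts per kilobase (SD, n = 3 each), and their libraries overlapped. MSTRG.11621.3 of Atp13a3 followed at 118 ± 18.6 scaled counts per kilobase, below both without overlap. MSTRG.11621.6 was next at 58.0 ± 39.3, below MSTRG.11621.3 without overlap. ENSMUST00000061350, ENSMUST00000100013, MSTRG.11621.1 and ENSMUST00000166119 came after it, between 22.6 ± 20.1 and 9.27 ± 1.55, and each overlapped its neighbour in the order. MSTRG.10549.1 was last at 0.399 ± 0.200 scaled counts per kilobase on this diet. On the normal diet the same transcript was the highest, at 167 ± 30.8 scaled counts per kilobase. MSTRG.11621.1 at 104 ± 46.8 and MSTRG.13142.2 at 92.8 ± 4.26 followed, and each overlapped its neighbour. ENSMUST00000023220 came next at 45.7 ± 10.7, below MSTRG.13142.2 without overlap, while its range overlapped that of MSTRG.11621.1. ENSMUST00000100013 at 1.71 ± 0.637 and ENSMUST00000166119 at 1.20 ± 0.297 overlapped each other, and the remaining 3 members were at 0.

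The 3 loci were set beside the other loci with several listed transcripts. Listed transcripts of opposite direction occurred at 37 of the 64 loci with 2 or more, 57.8%, and Slc52a2 and Atp13a3 are among the 37. Of all 750 listed loci the 37 are 4.93%. The summed scaled counts of the diets did not overlap at 13 of these 37 loci, 35.1%, at 60.9% of the 64 loci and at 87.9% of all listed loci. Atp13a3 is among the 13 and Slc52a2 is not. The log2 ratio of the sums, with 1 added to each mean, ran from -3.28 to 3.07 over the 37 loci with a median of 0.15. Slc52a2 was at 0.14, near that median, and Atp13a3 at 1.0, the 6th highest. Of the 27 loci whose listed transcripts moved in a single direction, 14 were higher on the high-fat diet, with log2 ratios between 1.18 and 10.6. Slc29a1 had the lowest of these 14, at 1.18. For single transcripts, the diets did not overlap for 9 of 9 members and for 91% of all listed transcripts.

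**Figure D4:**
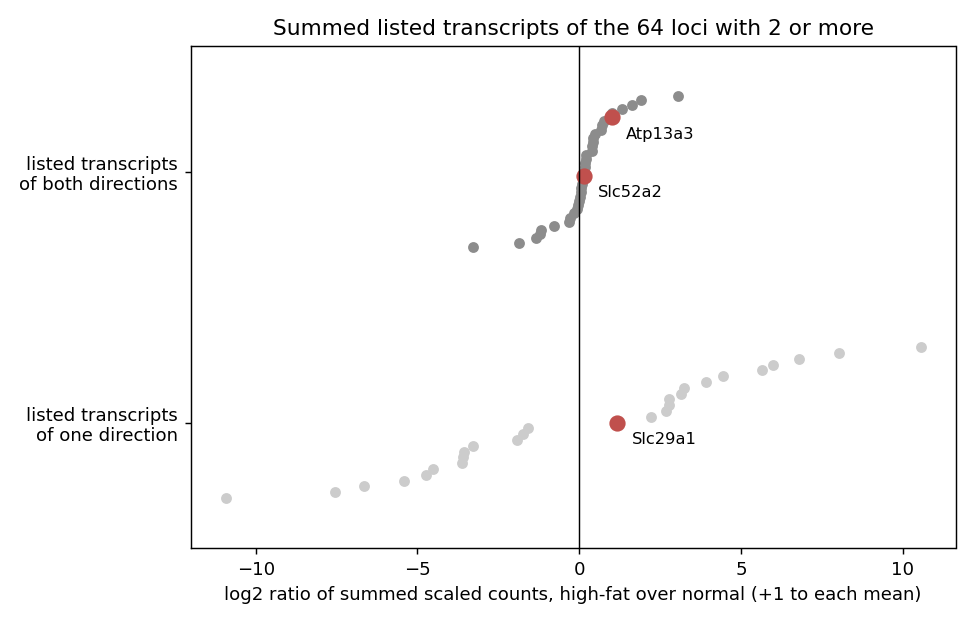
Log2 ratio of summed scaled counts, high-fat over normal with 1 added to each mean (x axis), of the 64 loci with 2 or more listed transcripts, ordered by ratio within each row. The upper row holds the 37 loci with listed transcripts of both directions, where Slc52a2 lies at 0.14 and Atp13a3 at 1.0; the lower row holds the 27 loci of a single direction, where Slc29a1 at 1.18 is the lowest of the 14 higher loci.

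Listed transcripts of other loci with the most similar profile were sought by the root mean square difference of log2(scaled count + 1) over the 6 libraries, each transcript centred on its own mean. For ENSMUST00000023220 of Slc52a2 the nearest were transcripts of Hectd2, a ubiquitin ligase gene, at 0.19 and Epc1, a gene of a histone acetyltransferase complex, at 0.21. For MSTRG.10549.1 of Slc52a2 they were assembled transcripts over Gm382 at 0.41 and over Nktr and Zfp651 at 0.46. For MSTRG.13142.2 of Slc29a1 they were assembled transcripts over 2610318N02Rik at 0.12 and over the palmitoyltransferase gene Zdhhc14 at 0.14. For ENSMUST00000166119 of Slc29a1 they were transcripts of the chromatin remodelling gene Nfrkb at 0.29 and the transcription factor gene Creb1 at 0.31. For MSTRG.11621.3 of Atp13a3 the nearest was an assembled transcript over R3hdm2 at 0.18, which was also at 0 in every normal-diet library, and the next was over Tmem35b and Zmym6 at 0.37. For MSTRG.11621.1 of Atp13a3 they were annotated transcripts of Immt, a gene of mitochondrial cristae, at 0.46 and of Fbxo3, a ubiquitin ligase gene, at 0.48. The nearest to MSTRG.11621.6 were an assembled transcript over Mapre3 at 0.39 and an annotated transcript of Epb41 at 0.57. Mapre3 encodes a protein of microtubule ends, and Epb41 encodes a protein of the membrane skeleton. The nearest to ENSMUST00000061350 were an assembled transcript over Tlx1os and an annotated transcript of the inositol phosphatase gene Inpp4a, both at 0.38. The nearest to ENSMUST00000100013 were an assembled transcript over Tmem209 at 0.30 and an annotated transcript of Gtdc1 at 0.37. The transcripts compared were listed for the same difference between diets, so likeness over 6 libraries is common among them and is given as a description.

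Other genes of these pathways were looked up in the same table. These counts are set beside the 0.868% of all tested transcripts that the authors called, a share per transcript and not per gene, and no excess or lack is read from them. Of 7 riboflavin genes in GENCODE, Slc52a2 alone was listed. Of 25 genes of other vitamin transporters and their handling, 2 were listed, with 1 transcript higher and 1 lower. A retained-intron transcript of Abcd4, a lysosomal vitamin B12 transporter gene, was at 17, 7 and 6 scaled counts on the high-fat diet, against 0 in each normal-diet library. A transcript of Pank2, which encodes the first enzyme of coenzyme A synthesis from vitamin B5, was at 0 in each high-fat library, against 57, 59 and 55 scaled counts on the normal diet. Its GENCODE class is nonsense-mediated decay.

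Of 31 genes of nucleoside transport and salvage, Slc29a1 and Upp1 were listed. Upp1, a uridine phosphorylase gene, was at 0 in each high-fat library, against 12, 9 and 6 scaled counts on the normal diet. Of 34 polyamine genes, only Atp13a3 had listed annotated transcripts, and an assembled transcript over Slc22a3, an organic cation transporter gene, was at 0 in each high-fat library, against 21, 30 and 5 scaled counts on the normal diet. The other genes of these lists, among them the polyamine synthesis gene Odc1 and the related ATPase genes Atp13a1, Atp13a2, Atp13a4 and Atp13a5, had no listed transcript, and their levels were not analysed here.

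By symbol, 8 annotated transcripts of solute carrier genes were listed, of which 6 were higher on the high-fat diet and 2 were not, with those of Slc52a2 and Slc29a1 among the 6. Of assembled transcripts over such genes, 3 were higher and 3 lower, those of Slc52a2 and Slc29a1 included. Of all 831 listed transcripts, 460 were higher and 371 lower, so nothing particular to solute carriers is read from these counts. The transcript of the iron transporter gene Slc11a2 had 686, 558 and 496 scaled counts on the high-fat diet, against 260, 188 and 171 on the normal diet, without overlap. A retained-intron transcript of the amino acid transporter gene Slc7a6 had 656, 603 and 525 on the high-fat diet, against 1022, 1087 and 1457 on the normal diet. Slc50a1, a sugar transporter gene, had listed retained-intron transcripts of both directions. Of P-type ATPase genes besides Atp13a3, a coding transcript of Atp9a was at 218, 128 and 64 scaled counts on the high-fat diet, against 0, 0 and 6 on the normal diet.

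The authors' deposited table of network neighbourhoods used a single transcript each for SLC52A2 and ATP13A3, and SLC29A1 is in none of its neighbourhoods. SLC52A2 entered 2 of its 20 neighbourhoods with 1186 scaled counts on the high-fat diet and 242 on the normal diet, the authors' means of ENSMUST00000023220 alone. ATP13A3 entered 3 with 166 on the high-fat diet and 0 on the normal diet, the authors' means of ENSMUST00000061350 alone. In the authors' deposited table the q-value of each of these neighbourhoods was 0.324. By contrast, the sum over listed Slc52a2 transcripts was 1188 ± 136 on the high-fat diet and 1079 ± 194 on the normal diet, and that over Atp13a3 transcripts 1686 ± 319 on the high-fat diet and 844 ± 376 on the normal diet (SD, n = 3 each).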

How the data were processed

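Strand-specific testis RNA-seq libraries were made from total RNA by the dUTP method, per the labels' protocols, 3 per diet. Trimmomatic, HISAT2, StringTie, DESeq and GRCm38 are named, without versions, in the submitters' processing notes. The table deposited by the authors holds expected counts per transcript, whole numbers as deposited. It also holds the same counts scaled and rounded by the authors, a score, and the authors' mean scaled signal per diet. The authors' fold (a ratio of high-fat over normal), its log2, the p-value and its adjusted form are deposited too. The number of transcripts the authors tested, 95751, was worked out from adjusted p, p and rank.

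Size factors, recovered as counts over scaled values at counts of at least 1000, were 0.908 to 1.14 on the high-fat diet and 0.940 to 1.09 on the normal diet. Listed transcripts summed to 427777 to 490603 counts in high-fat and 362790 to 402866 counts in normal-diet libraries, which is only part of the depth. Scaled values matched counts over size factors to within 0.851. edgeR 4.0.16 in R 4.3.3 (glmQLFit, filterByExpr with a minimum count of 10) was fitted to all listed transcripts and to locus sums, leaving 680 transcripts and 608 loci; it gave log2 fold changes and standard errors, tested on simulated data. Its p-values are not reported, since every transcript was listed for this difference. Fold bounds set the mean of the high-fat libraries against a floor of 3 counts per normal-diet library. They cover counting error only, and a single library can lie below them. DESeq2 1.42.0 and limma 3.58.1 were alternatives. The authors' pathway and ontology tables were not used.

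Members and gene lists were chosen with earlier results of these data known. Named are all members, the 2 nearest profiles among transcripts with a mean scaled count of at least 50, and listed genes of the pathway and marker lists. Solute carrier genes found by symbol were named only in part, without a fixed rule. Those left out were Slc25a45, Slc43a1, Slc25a46, Slc12a5 and Slc38a9. Gene names of assembled transcripts come from GENCODE M21 overlap on the same strand, sequences from GENCODE M21 transcripts and RefSeq (GRCm38.p6). RefSeq start windows matched for 1 of the 3 genes.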

Additional observations from a re-analysis of the deposited data

How the results depend on the processing

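The other scalings lowered log2 fold changes by a median of 0.49 (TMM), 0.52 (DESeq2 size factors) and 0.24 (library totals). The comparison is with the authors' size factors, which were used for the main values. The other scalings were computed from the listed transcripts alone. All of these were called different, so they do not meet the assumption of TMM, and no fault of either scaling is read from the shifts. With TMM, DESeq2 size factors and library totals, the summed log2 fold change of Slc52a2 was -0.29, -0.38 and -0.11, against 0.14, and that of Slc29a1 was 0.75, 0.66 and 0.93, against 1.18. That of Atp13a3 was 0.57, 0.49 and 0.75, against 1.0, moves smaller than its spread between libraries. Limited to annotated transcripts, the sums gave 2.29, 2.94 and 4.46, because the assembled transcripts were left out. Leaving out 1 library gave 0.03 to 0.29 for Slc52a2, 0.98 to 1.33 for Slc29a1 and 0.67 to 1.24 for Atp13a3, the lowest without normal-diet library 7. The difference between the diets in the share of the higher transcripts was between 75.4 and 78.8 percentage points for Slc52a2 and between 91.4 and 94.0 for Atp13a3. Transcripts were grouped by the direction in which they were listed, so its sign was set in advance and only its size is described. For Slc29a1 this share is 100% by construction and was not compared. Loci with both directions numbered 37, and 10 with annotated transcripts only, as fewer transcripts were counted. At an adjusted p under 0.01, 7 of 9 members and 25 such loci remained in the authors' deposited table. The share of all listed transcripts under 0.01 was not counted, so nothing particular to the members is read from their number. Of 99 alternative values of single members, 11 moved by more than the spread between libraries, each with another scaling, and 0 changed direction. For the 3 members at 0 on the normal diet only scalings and left-out libraries were compared, as bounds. No paired analysis was possible because the diets share no replicate numbers. Depth limits the 3 members at 0 on the normal diet, for which only bounds are given, and MSTRG.10549.1 and ENSMUST00000166119, with 1 to 3 scaled counts in each library of a diet.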
